A study of Mus musculus with 12 samples.

Results

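The CREB family and the acetyltransferases CBP and p300 were examined as 9 genes: Creb1, Atf1, Crem, Creb5, Creb3, Creb3l1, Creb3l2, Crebbp and Ep300. They were taken by gene symbol from a table of 36779 transcripts in 24541 genes, where they hold 29 transcripts. All 9 genes had enough reads to be tested, as did 28 of their 29 transcripts. CREB1, ATF1 and CREM are basic leucine zipper factors that bind the cyclic AMP response element (CRE) and, once phosphorylated by protein kinase A, recruit CBP (encoded by Crebbp) or p300 (encoded by Ep300), which acetylate histones. CRTC proteins such as CRTC2 are coactivators that join the same complex when cyclic AMP rises, as it does in fat cells under fasting or beta-adrenergic signals. CREB3, CREB3L1 and CREB3L2 are of another kind: they are anchored in the membrane of the endoplasmic reticulum and freed by proteases of the Golgi.

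Poly-A RNA of primary adipocytes from the epididymal fat of C57BL/6N mice was sequenced in 12 libraries. The 4 groups of 3 libraries were Crtc2 f/f mice, called WT, at 3 months (young WT) and at 18 months (old WT), and mice labelled as an adipocyte knockout of Crtc2 (AKO) at the same ages (young AKO and old AKO). The labels used here name no Cre driver and do not say whether any libraries share a mouse. A p-value here therefore reflects spread among libraries, which may be technical. Levels are given as CPM (estimated reads scaled to a fixed library size after TMM normalization), as mean ± SD over 3 libraries.

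Crtc2 itself goes against its label. It stood at 66.9 ± 12.8 CPM in young WT and 248 ± 73.6 in young AKO, and at 49.0 ± 3.29 in old WT and 155 ± 5.10 in old AKO. The log2 difference was 1.89 ± 0.21 (SE) in young and 1.66 ± 0.21 in old libraries, with adjusted p = 0.00730 and 0.0125 (edgeR). WT and AKO below therefore mean the groups as labelled, and every direction between them is that of the labels. Adipocyte markers summed to 43832 to 95672 CPM in every library. Old WT replicate 3 lay at 71.6 on the first principal component (56.1% of the variance), beyond the 44.9 and 40.5 of its group, and young WT replicate 1 at -16.3 on the second (13.9%), against 21.7 and 25.0. Calls of the 9 genes and of their transcripts are therefore also given without these 2 libraries, where the Crtc2 differences were 1.75 and 1.69 (adjusted p = 0.0154 and 0.0161, edgeR). Both are WT libraries. In AKO ageing their removal changes the shared spread and scaling of the fit but none of the libraries compared, so it is no check of an AKO call. For the called pathway genes named below the same was done after the data were seen, and it is stated where a call was lost or a value moved by over 1.5 times. Leaving out old WT replicate 3 alone cost more calls. Of the pathway calls named by rule, 4 of 8 between the old genotypes and 19 of 27 in WT ageing then held, against 6 and 24 without both libraries (edgeR). In bulk RNA, fewer cells of a type and less RNA per cell cannot be told apart.

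Levels were compared between genes by the authors' FPKM, which divides reads by transcript length, summed over the transcripts of a gene and averaged over the 12 libraries. Creb3 was the highest, at 33.6 FPKM. Atf1 (13.6), Creb3l2 (11.6), Creb3l1 (9.22) and Crem (8.77) followed. The large coactivators were lower, at 5.87 FPKM for Ep300 and 3.72 for Crebbp. Creb1 stood at 3.68 FPKM and Creb5 was the lowest at 0.64. The ranges over libraries overlap for many neighbours in this order: Crebbp ran from 2.72 to 5.46 FPKM and Creb1 from 2.97 to 4.63, whereas the highest Creb5 library, at 1.24, lay below the lowest of every other member. Creb1 and Atf1, the factors usually named as the cyclic AMP responders, varied least, with a coefficient of variation of CPM over the 12 libraries of 8.45% and 10.02%. Creb5 varied most (64.9%), followed by Creb3l1 (43.7%).

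**Figure D1:**
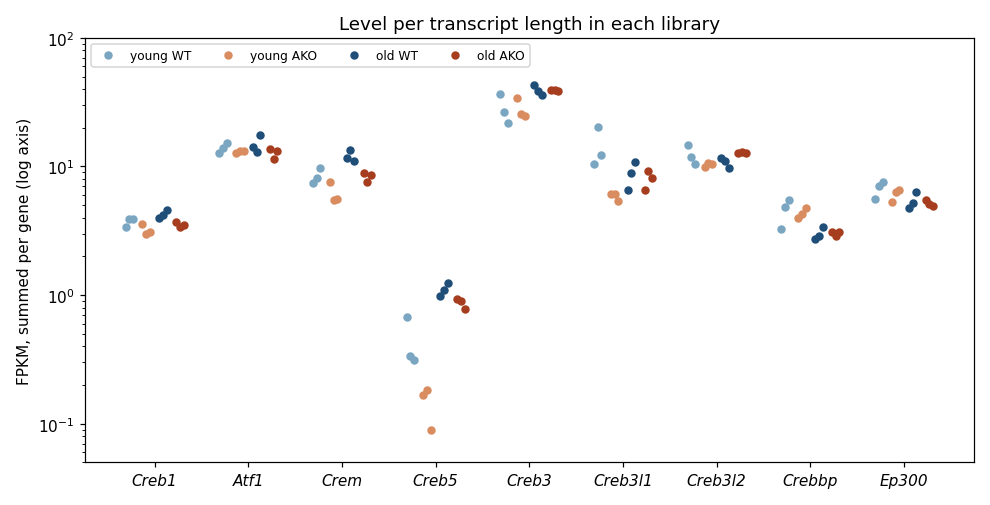
FPKM of the 9 genes in each of the 12 libraries (points, log axis), coloured by group; AKO is the group as labelled. Creb3 is highest with a mean of 33.6 FPKM and Creb5 lowest with 0.64.

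With age, coactivators fell and Creb5 rose. In WT libraries 4 of the 9 genes were called (adjusted p under 0.05, edgeR): Crebbp, Ep300 and Creb3l1 lower and Creb5 higher in old. Of all genes tested, 22.9% were called in this comparison, 8.73% lower and 14.2% higher. In AKO libraries 2 of 9 were called, Crebbp lower and Creb5 higher, against 18.4% of all genes (10.4% higher and 7.93% lower). Between genotypes 1 of 9 was called in young libraries, Creb3l1 lower in AKO (0.976% of all genes were called, 0.79% lower), and 0 of 9 in old libraries (5.95% of all genes). At an unadjusted p under 0.05 there were 2 members in old libraries (22% of all genes), and the DESeq2 and limma-voom tests also called 0.

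**Figure D2:**
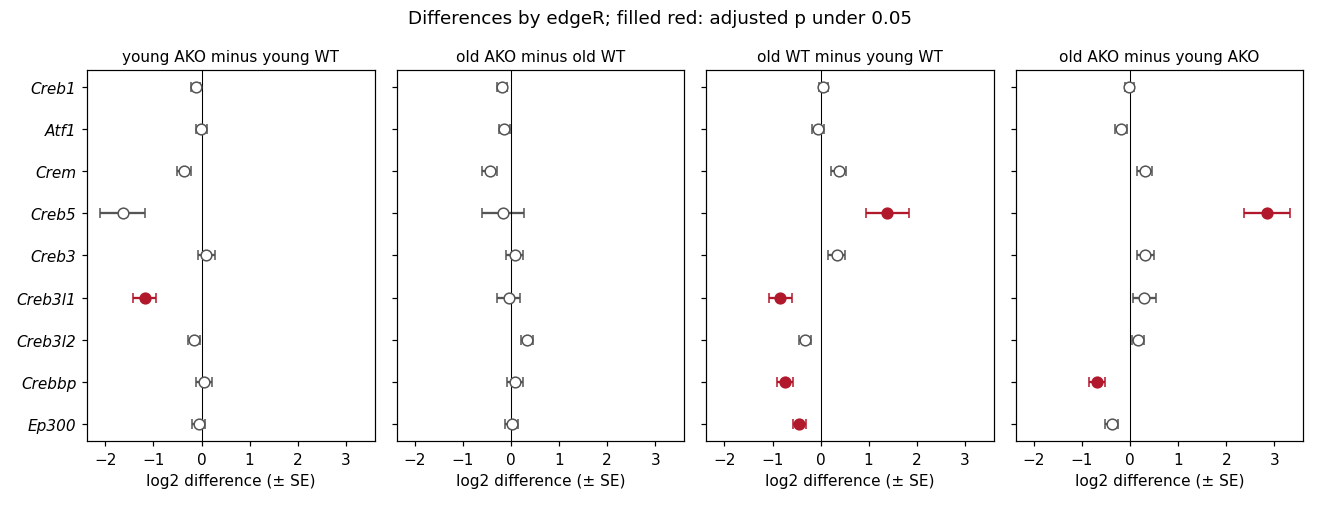
Log2 differences (points) with their SE (bars) for the 9 genes in 4 comparisons; AKO is the group as labelled and filled red points have an adjusted p under 0.05 (edgeR). Creb5 in old against young AKO, at 2.86, is farthest from 0.

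The groups did not overlap for 6 of the 9 genes between old and young AKO, 3 higher and 3 lower, against 45.5% of all genes tested (23.9% higher and 21.7% lower). The count was 3 of 9 between old and young WT (40.5% of all genes), 2 of 9 between the young genotypes (20.6%) and 3 of 9 between the old genotypes (38.1%). The median log2 difference of the 9 genes was -0.05 in WT ageing and 0.17 in AKO ageing, where all genes had 0.03 and -0.01. It was -0.12 between the young and -0.05 between the old genotypes, where all genes had 0.01 and -0.01.

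Crebbp (chromosome 16, 4084048 to 4213404, minus strand, mm10) encodes CBP. Young WT libraries had 25.6, 36.6 and 43.0 CPM and young AKO 33.0, 35.2 and 40.6. Old WT libraries had 19.4, 20.5 and 23.3 CPM and old AKO 22.5, 21.5 and 23.2. Every young library was above every old one, and the genotypes overlapped at each age. The log2 difference with age was -0.74 ± 0.16 in WT (adjusted p = 0.0120, edgeR) and -0.70 ± 0.16 in AKO (adjusted p = 0.0195, edgeR). Without the 2 libraries that lay apart these were -1.01 (adjusted p = 0.00136) and -0.69 (adjusted p = 0.00221, edgeR). Both are WT libraries, so the second value compares the same AKO libraries as before. The WT call held in all 12 fits that left out 1 library. The AKO call held in 8 of 12, and was lost without young AKO replicate 3 (adjusted p = 0.0769) or old AKO replicate 1, 2 or 3 (0.0709, 0.0634 and 0.0505, edgeR). The WT call was also lost when the 6 WT libraries were fitted alone (adjusted p = 0.0634, edgeR), and the AKO call on log2(FPKM + 1), at -0.42 (adjusted p = 0.0750, limma).

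Ep300 (chromosome 15, 81586214 to 81652077, plus strand, mm10) encodes p300, the close relative of CBP. Its level was 51.0, 62.6 and 69.6 CPM in young WT and 51.1, 60.6 and 64.7 in young AKO. It was 39.9, 43.2 and 51.3 CPM in old WT and 47.3, 44.5 and 43.5 in old AKO. Old WT replicate 3, at 51.3, lay within the young range, and every old AKO library lay below every young AKO one. In WT Ep300 fell by 0.45 ± 0.14 on the log2 scale (adjusted p = 0.0375, edgeR), and by 0.69 without the 2 libraries that lay apart (adjusted p = 0.00590, edgeR). This call held in 6 of the 12 fits that left out 1 library and was lost without young WT replicate 2 or 3, old WT replicate 1 or 2, or old AKO replicate 1 or 2, with an adjusted p of up to 0.136 (edgeR). On log2(FPKM + 1) the difference was -0.26 (adjusted p = 0.150, limma), and with the 6 WT libraries alone the adjusted p was 0.0949 (edgeR). In AKO the difference was -0.38 ± 0.14 (adjusted p = 0.0726, edgeR). Without the 2 libraries that lay apart the adjusted p was 0.0233 (edgeR), but these are WT libraries and the AKO libraries compared stayed the same.

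The promoters of these 2 coactivators are shown because both genes were lower in old WT. They are RefSeq windows of 250 bases before to 50 after the gene start (GRCm38.p6, the patch release of the mm10 build), and neither holds the CRE letters TGACGTCA or the shorter core TGACG on either strand. No capitals therefore appear in them. Crebbp is chr16:4213355-4213654 on the minus strand and Ep300 is chr15:81585964-81586263 on the plus strand.
Crebbp: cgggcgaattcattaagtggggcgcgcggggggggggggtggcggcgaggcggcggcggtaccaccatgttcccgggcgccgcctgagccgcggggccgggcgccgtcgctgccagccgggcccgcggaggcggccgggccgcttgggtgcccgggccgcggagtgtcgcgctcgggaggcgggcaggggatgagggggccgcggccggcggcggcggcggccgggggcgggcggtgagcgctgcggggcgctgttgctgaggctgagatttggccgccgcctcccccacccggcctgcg
Ep300: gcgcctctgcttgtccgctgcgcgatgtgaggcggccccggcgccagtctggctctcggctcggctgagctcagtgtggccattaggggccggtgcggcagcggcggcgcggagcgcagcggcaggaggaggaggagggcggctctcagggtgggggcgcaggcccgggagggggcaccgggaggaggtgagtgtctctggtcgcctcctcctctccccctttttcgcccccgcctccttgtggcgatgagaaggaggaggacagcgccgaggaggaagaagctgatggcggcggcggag

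Likeness was taken as the smallest root mean square difference of log2 CPM, centred on each gene's own mean over the 12 libraries. Of 12647 genes with a mean of at least 1 CPM, unnamed gene models were passed over. Among the named ones, those most like Crebbp were Arid1a (0.069), Brpf1 (0.070) and Srcap (0.095). Arid1a averaged 85.9 CPM in young WT and 48.5 in old WT. The genes most like Ep300 were Prdm2 (0.074), Brwd1 (0.079) and Ell (0.079).

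Of 22 tested partners and regulators of CBP and p300, 7 were called lower and 1 higher in old WT, with a median of -0.21, and 5 lower and 1 higher in old AKO, also with a median of -0.21. Of all genes tested, 8.73% were lower and 14.2% higher in old WT, and 7.93% lower and 10.4% higher in old AKO. The kinase gene Hipk2 went from 120 ± 17.7 to 56.2 ± 6.02 CPM in WT (log2 -1.09 ± 0.14, adjusted p = 0.00187, edgeR). Med1, a Mediator subunit that binds nuclear receptors, fell by 0.42 ± 0.09 on the log2 scale (adjusted p = 0.00970, edgeR). The bromodomain gene Brd8 fell by 0.48 ± 0.10 (adjusted p = 0.0109, edgeR). The histone deacetylase gene Hdac9 was the 1 that rose, from 2.26 ± 1.39 to 15.1 ± 4.89 CPM (2.74 ± 0.43, adjusted p = 0.00419, edgeR). In old AKO Med1 (-0.34), Carm1, an arginine methyltransferase that joins p300 (-0.32), and Hipk2 (-0.52) were called lower and Hdac9 (1.74) higher, with adjusted p = 0.0262, 0.0274, 0.0276 and 0.0199 (edgeR). In fits of the 6 WT or the 6 AKO libraries alone, 4 and 10 of the 22 were called. On log2(FPKM + 1), 5 were called in WT ageing and 0 in AKO ageing. The shares of all genes called in these fits are not given, so the counts cannot be set against them.

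Of 14 tested other lysine acetyltransferases, 3 were called lower and 1 higher in old WT (median -0.24) and 1 lower in old AKO (median -0.26), beside the same shares of all genes. The steroid receptor coactivator gene Ncoa1 fell by 0.72 ± 0.14 in WT (adjusted p = 0.00752, edgeR). Kat6b fell by 0.53 ± 0.12 in WT (adjusted p = 0.0114) and by 0.39 ± 0.12 in AKO (adjusted p = 0.0410, edgeR). Taf1, a subunit of the TFIID complex, fell by 0.25 ± 0.08, and Hat1, an acetyltransferase of new histones, rose by 0.54 ± 0.17 in WT (adjusted p = 0.0426 and 0.0485, edgeR). Both calls were lost without the 2 libraries that lay apart, at -0.31 for Taf1 and 0.28 for Hat1 (adjusted p = 0.0515 and 0.239, edgeR). Between genotypes edgeR called 0 of these 14 and 0 of the 22 partners at either age. At an unadjusted p under 0.05 there were 1 and 2 in young and 3 and 3 in old libraries, and DESeq2 called 1 partner in old libraries.

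Cell type markers moved in the same comparisons. In old against young WT, 8 of 15 adipocyte markers were lower, and their summed level was 77812 to 87444 CPM in young and 43832 to 55507 in old WT. In AKO 1 of 15 was lower, with sums of 72831 to 95672 in young and 67859 to 75183 in old. Of 15 macrophage markers, 13 were higher in old WT and 5 in old AKO, with sums of 380 to 517 CPM in young WT, 1198 to 5327 in old WT, 230 to 300 in young AKO and 405 to 569 in old AKO. None of these markers was at 0 in all libraries. The part of these markers in the fall of Crebbp and Ep300 was not tested.

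**Figure D3:**
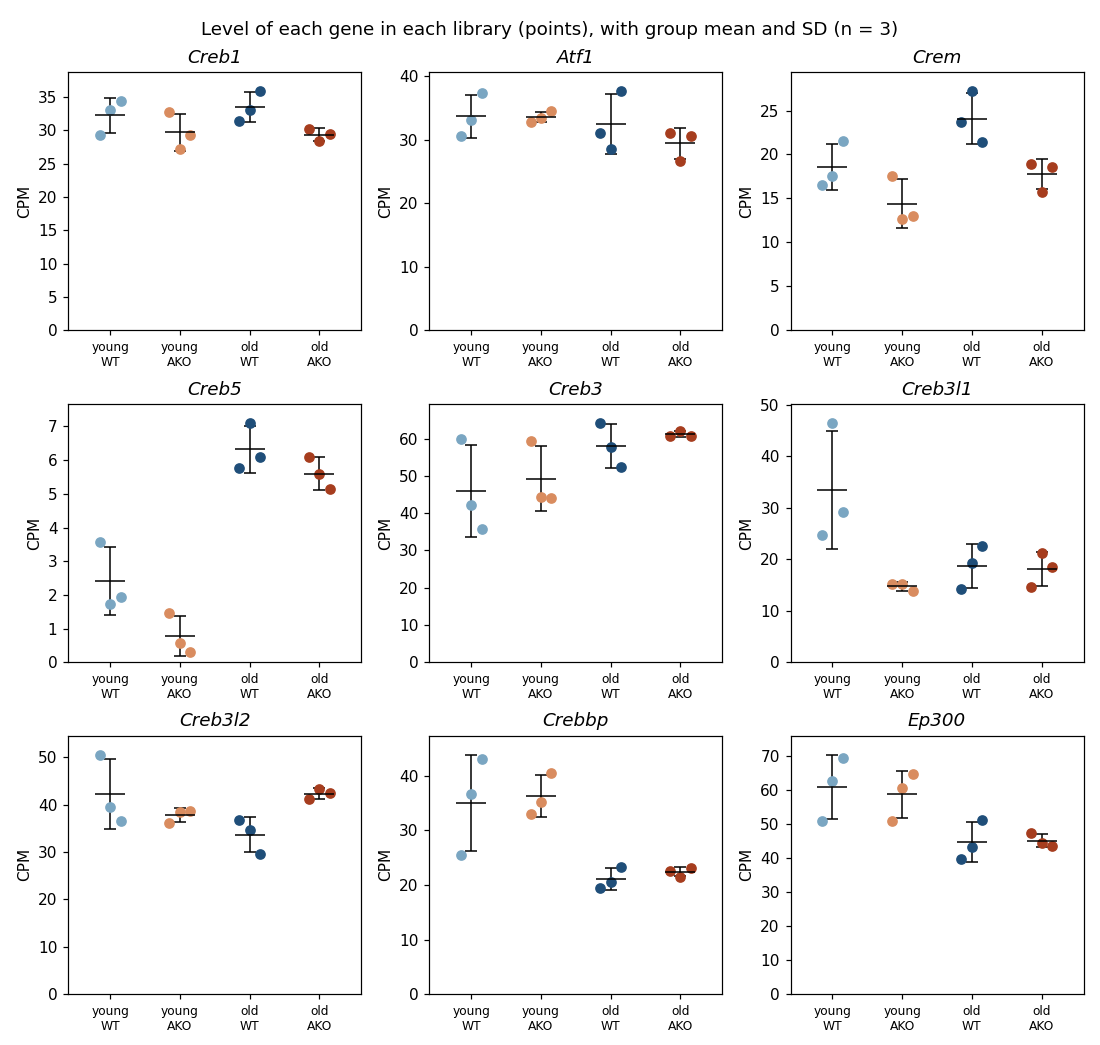
CPM of each gene in each library (points) by group, with the group mean and SD (bars, n = 3); AKO is the group as labelled. Each young library has more Crebbp than any old one, and each old library has more Creb5 than any young one.

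Creb5 (chromosome 6, 53287303 to 53700363, plus strand, mm10) encodes a leucine zipper factor related to ATF2. It was the least abundant member, with 16 to 398 estimated reads per library. Young WT libraries had 3.58, 1.73 and 1.92 CPM and young AKO 1.46, 0.58 and 0.29. Old WT libraries had 5.76, 7.11 and 6.08 CPM and old AKO 6.09, 5.59 and 5.13. Every old library was above every young one, every young WT library was above every young AKO one, and the old genotypes overlapped. Creb5 rose with age by 2.86 ± 0.48 on the log2 scale in AKO, or 7.24-fold (adjusted p = 0.00533, edgeR), and by 1.39 ± 0.44 in WT (adjusted p = 0.0454, edgeR). The AKO call held in all 12 fits that left out 1 library, with a log2 difference of 2.46 to 3.68. Without the 2 libraries that lay apart it was 2.86 (adjusted p = 0.00297, edgeR), but these are WT libraries and the AKO libraries compared stayed the same.

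The WT call of Creb5 held in 3 of those 12 fits, without young WT replicate 1 or young AKO replicate 1 or 3. In the other fits the adjusted p reached 0.142 (edgeR, without young WT replicate 3). With no filter on low counts it was 0.0546 (edgeR). Without the 2 libraries that lay apart the rise was 1.80 (adjusted p = 0.0342, edgeR). On log2(FPKM + 1), a scale that understates changes of low genes, the rise was 0.55 in WT and 0.71 in AKO. In the young genotypes Creb5 differed by -1.64 ± 0.47 (adjusted p = 0.0945, edgeR), which did not pass the test. DESeq2 called it (adjusted p = 0.00899), as did edgeR without young AKO replicate 1 (-2.46, adjusted p = 0.0420).

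Creb5 has 2 start sites in the table, and their windows are shown because the gene had the largest change with age of the members. The window of variant 1 (501 codons) is chr6:53287053-53287352, plus strand, and holds a full CRE, TGACGTCA, 45 bases before the start (capitals). The window of variant 2 (357 codons), chr6:53573124-53573423, plus strand, holds neither the CRE letters nor the core. A full CRE, which reads alike on both strands and contains the core on each, was found in 1.79% of all 32851 such windows, and the core TGACG on either strand in 20.8%.
Creb5 variant 1: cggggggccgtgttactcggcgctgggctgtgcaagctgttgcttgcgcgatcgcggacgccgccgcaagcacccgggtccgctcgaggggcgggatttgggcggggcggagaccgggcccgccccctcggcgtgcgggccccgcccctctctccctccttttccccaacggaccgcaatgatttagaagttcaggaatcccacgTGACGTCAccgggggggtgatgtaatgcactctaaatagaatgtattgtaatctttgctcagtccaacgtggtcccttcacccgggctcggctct
Creb5 variant 2: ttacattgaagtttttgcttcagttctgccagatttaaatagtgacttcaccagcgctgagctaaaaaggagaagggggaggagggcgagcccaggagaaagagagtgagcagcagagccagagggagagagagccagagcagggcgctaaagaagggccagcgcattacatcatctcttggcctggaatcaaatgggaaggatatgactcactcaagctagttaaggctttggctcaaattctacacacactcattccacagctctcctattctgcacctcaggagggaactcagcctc

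Windows of 7 members (8 starts) were searched, and among these Creb5 variant 1 was the one with a full CRE. Crem and Creb3l1 were not searched, so nothing is said here of a CRE in their promoters. The Atf1 window (chr15:100227609-100227908, plus strand) holds a core 90 bases before the start, and the Creb3l2 window (chr6:37442099-37442398, minus strand) a core 196 bases before it. The other 5 windows hold neither. These matches are letters in a window and no measure of binding.

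Reads were assigned mostly to Creb5 variant 1, the one with the CRE: 82.5 ± 10.03% of Creb5 reads in old WT and 87.0 ± 2.86% in old AKO. Variant 1 stood at 4.41 to 6.55 CPM in old WT and 4.51 to 5.49 in old AKO, against 1.17 to 2.44 in young WT. In young AKO it had 1.44 CPM in replicate 1 and 0 in replicates 2 and 3, where all reads went to variant 2, so the split between variants is uncertain at this depth. Neither variant was called on its own in any comparison; the smallest adjusted p was 0.222 (edgeR, variant 1 in AKO ageing).

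The genes most like Creb5 over the 12 libraries were Stmn2 (0.28), Ctgf (0.34) and Megf6 (0.42), by the same root mean square measure, where Creb5 itself had an SD of 1.45. Ctgf averaged 9.06 CPM in young WT, 3.90 in young AKO, 31.0 in old WT and 23.2 in old AKO. Markers of other cells rose with age beside Creb5. Of 14 progenitor and fibroblast markers 11 were higher in old WT and 9 in old AKO, 1 being lower in each, with sums of 1532 to 1843 CPM in young WT, 2201 to 2395 in old WT, 1288 to 1567 in young AKO and 1386 to 1645 in old AKO. Of 10 tested mesothelial markers 3 were higher in old WT and 9 in old AKO, with sums of 22.3 to 84.6, 95.3 to 173, 9.08 to 28.3 and 52.2 to 121 CPM in the same order of groups. Of 12 endothelial markers 3 and 10 were higher, with sums of 821 to 1556, 1369 to 2444, 525 to 712 and 1027 to 1593 CPM. No marker of these lists was at 0 in all libraries, and their part in the rise of Creb5 was not tested.

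Creb3l1 (chromosome 2, 91982328 to 92024170, minus strand, mm10) encodes OASIS, a factor known for activating collagen genes in bone. Young WT libraries had 24.6, 46.4 and 29.2 CPM and young AKO 15.3, 15.2 and 13.7. Old WT libraries had 14.2, 19.2 and 22.6 CPM and old AKO 14.6, 21.2 and 18.4. Young WT stood above all other groups with no overlap, while the other 3 groups overlapped their neighbours in order of level. Creb3l1 was lower in young AKO by a log2 difference of -1.18 ± 0.24 (adjusted p = 0.0491, edgeR) and fell by 0.84 ± 0.24 with age in WT (adjusted p = 0.0295, edgeR). In AKO it differed with age by 0.29 ± 0.24 (adjusted p = 0.405, edgeR).

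Both Creb3l1 calls lie near the threshold. The young genotype call held in 3 of the 12 fits that left out 1 library, namely young WT replicate 1, young WT replicate 3 or old WT replicate 3. It was -0.87 without young WT replicate 2, the highest library (adjusted p = 0.140), and its adjusted p reached 0.189 without young AKO replicate 3 (edgeR). It was lost with limma-voom (adjusted p = 0.0939), with the replicate number as a block (0.0539, edgeR), with no filter on low counts (0.0548, edgeR) and with the 6 young libraries alone (0.155, edgeR). Without the 2 libraries that lay apart it was -1.37 (adjusted p = 0.0164, edgeR). The ageing call held in 8 of 12 fits and was lost without young WT replicate 2 (-0.53, adjusted p = 0.0973), young WT replicate 3 (0.0535), old WT replicate 1 (0.0762) or old WT replicate 2 (0.0541, edgeR). It was also lost with the 6 WT libraries alone (0.0919, edgeR) and on log2(FPKM + 1) (-0.62, adjusted p = 0.0676, limma). Without the 2 libraries that lay apart it was -1.20 (adjusted p = 0.00972, edgeR).

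Markers of other cells were also lower in young AKO: 3 of 14 progenitor and fibroblast markers and 1 of 12 endothelial markers were called, at the sums given above. Of 9 smooth muscle and pericyte markers 1 was lower, with sums of 555 to 699 CPM in young WT and 350 to 474 in young AKO. Their part in the Creb3l1 difference was not tested. The genes most like Creb3l1 were Disp1 (0.30), Fzd5 (0.32) and Cbr3 (0.33), with an SD of 0.52 for Creb3l1 itself.

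Creb3 (chromosome 4, 43562634 to 43567060, plus strand) and Creb3l2 (chromosome 6, 37331021 to 37442148, minus strand, both mm10) were not called in any comparison by the main edgeR fit. In WT ageing Creb3 differed by 0.34 ± 0.18 (adjusted p = 0.190) and Creb3l2 by -0.33 ± 0.12 (adjusted p = 0.0772, edgeR). Of 23 alternatives there, 2 called Creb3 (log2 difference 0.18 to 0.63 over all 23) and 1 called Creb3l2 (-0.44 to -0.11). Creb3 ran from 35.9 to 59.9 CPM in young WT, 44.2 to 59.3 in young AKO, 52.3 to 64.3 in old WT and 60.6 to 62.1 in old AKO. The old AKO range lay above the young AKO one, and neighbouring groups in order of level overlapped. From gene start to gene end, Creb3 shares 360 bases with Tln1 and 133 with Gba2 on the opposite strand. Overlap of their exons was not measured. The labels do not state the strand of the libraries, so reads there cannot be assigned with certainty. Creb3l2 encodes a factor known for the secretory pathway of cartilage cells. It had 36.7, 34.7 and 29.7 CPM in old WT and 41.2, 43.4 and 42.4 in old AKO, which do not overlap, with a log2 difference of 0.33 ± 0.12 (adjusted p = 0.144, edgeR). Young WT (50.6, 39.6 and 36.5 CPM) and young AKO (36.0, 38.4 and 38.8) overlapped.

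Of 21 tested proteases and secretory targets of the CREB3 family, 3 were called higher and 1 lower in old WT (median -0.11) and again 3 and 1 in old AKO (median -0.09), where all genes had 14.2% higher and 8.73% lower in WT and 10.4% and 7.93% in AKO. Those higher were the matrix genes Fn1, Col1a1 and Col1a2, which are also made by fibroblasts, and the collagens are in the marker list of those cells. Col1a1 went from 106 ± 63.1 to 317 ± 20.1 CPM in WT (1.58 ± 0.42, adjusted p = 0.0221) and from 62.1 ± 26.1 to 182 ± 12.7 in AKO (1.55 ± 0.42, adjusted p = 0.0292, edgeR). The one lower was Sec24a, a subunit of COPII coats (-0.58 ± 0.12, adjusted p = 0.00857 in WT, edgeR). Between genotypes 0 of 21 were called in young libraries, with 1 at an unadjusted p under 0.05 (edgeR). In old libraries 1 was called, Fn1, lower in AKO (-1.70 ± 0.32, adjusted p = 0.0189, edgeR).

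Whether the genotype difference changed with age was tested as an interaction, and 0 of the 9 genes were called (edgeR; 0.00664% of all genes). DESeq2 and limma-voom also called 0, and 3 members had an unadjusted p under 0.05 (9.35% of all genes). These were Creb3l1 (1.13 ± 0.34, adjusted p = 0.507), Creb3l2 (0.49 ± 0.17, adjusted p = 0.507) and Creb5 (1.47 ± 0.63, adjusted p = 0.528, edgeR), each with a higher log2 genotype difference at 18 months. The genotype effect on Creb3l1 is thus not shown to differ between ages.

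Crem (chromosome 18, 3266354 to 3337589, minus strand, mm10) has 18 transcripts in the table. It encodes activators with a kinase-inducible domain and, from an internal promoter known in textbooks, the short repressor ICER, which binds the CRE without that domain and is itself induced by cyclic AMP. Young WT libraries had 16.5, 17.6 and 21.5 CPM and young AKO 17.6, 12.7 and 13.0. Old WT libraries had 23.7, 27.2 and 21.4 CPM and old AKO 18.9, 15.8 and 18.6. Every old AKO library was below every old WT one, while the young genotypes overlapped. The log2 genotype difference was -0.36 ± 0.16 in young (adjusted p = 0.230) and -0.44 ± 0.16 in old libraries (adjusted p = 0.125, edgeR), and neither passed the test. The difference with age in WT was 0.38 ± 0.16 (adjusted p = 0.103, edgeR), but it passed on log2(FPKM + 1) at 0.47 (adjusted p = 0.0289, limma).

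Crem transcripts were grouped by where they start, a grouping made after the values were seen and described here with no test. Variants 17 and 18 start 14.8 kb from the 3′ end and variants 10 and 11 start 15.4 kb from it, against 61.2 kb for the 11 transcripts with the upstream start and the same 3′ end. The models matched to variants 17, 18, 10 and 11 in the mm10 gene annotation code for 102, 119, 125 and 113 codons. These models have 973, 953, 529 and 957 exon bases, against 2153, 2199, 2029 and 1993 for the transcripts. The codon counts may therefore not be those of the transcripts. The table does not call them ICER.

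The 4 internal-start transcripts held most Crem reads: 71.4, 69.0 and 74.8% in young WT and 59.8, 62.5 and 60.3% in young AKO. The shares were 76.5, 73.1 and 80.4% in old WT and 63.2, 69.2 and 73.4% in old AKO. Young AKO lay below young WT with no overlap, and old AKO overlapped old WT. Summed, these transcripts stood at 11.8, 12.1 and 16.1 CPM in young WT and 10.4, 7.91 and 7.77 in young AKO, and at 18.2, 19.9 and 17.3 in old WT and 12.01, 10.96 and 13.7 in old AKO. At each age every AKO library was below every WT library. The 11 upstream-start transcripts overlapped in all groups, with 3.76 to 3.95 CPM in young WT, 3.21 to 4.86 in young AKO, 3.33 to 5.76 in old WT and 3.28 to 5.68 in old AKO. Variants 7 and 8, which have another 3′ end, together held 5.84 to 8.56% of Crem reads in young WT and 9.76 to 14.7% in young AKO. They held 3.67 to 4.20% in old WT and 5.22 to 8.68% in old AKO. Reads were split among overlapping transcripts by the authors' estimate.

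**Figure D4:**
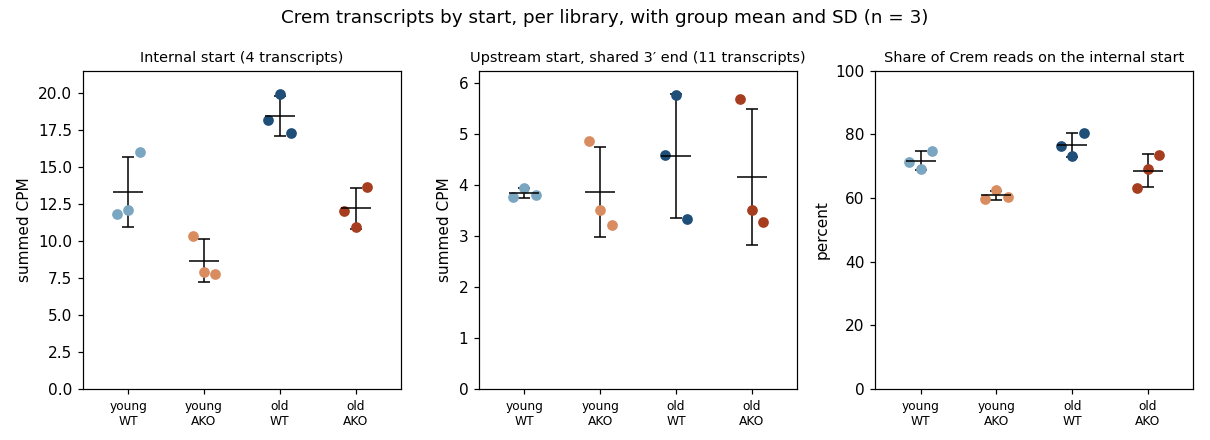
Crem by library (points) with group mean and SD (bars, n = 3): summed CPM of internal-start and of upstream-start transcripts, and the percent of Crem reads on internal-start transcripts. AKO is the group as labelled; internal-start CPM is 10.4 or less in young AKO and 17.3 or more in old WT.

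Of single transcripts, Crem variant 17 held the most reads, with 8.98, 6.87 and 10.3 CPM in young WT and 5.80, 3.79 and 4.65 in young AKO. Old WT had 14.1, 11.4 and 10.8 CPM and old AKO 9.70, 8.09 and 10.9. It rose with age in AKO by 1.01 ± 0.22 on the log2 scale (adjusted p = 0.0354, edgeR), the 1 call among 28 member transcripts there, where 4.57% of all transcripts were called. Without the 2 libraries that lay apart, which are WT and not among those compared, it was 1.02 (adjusted p = 0.0369, edgeR). The call held in 5 of the 12 fits that left out 1 library (without young WT replicate 1, 2 or 3, young AKO replicate 1 or old WT replicate 3), with an adjusted p of up to 0.122 in the rest (edgeR, without young AKO replicate 3). Its young genotype difference was -0.87 ± 0.22 (adjusted p = 0.145, edgeR). In WT ageing the 1 call of 28 was the Crebbp transcript (-0.73 ± 0.17, adjusted p = 0.0350, edgeR; 7.35% of all transcripts), which without the 2 libraries was -1.0 (adjusted p = 0.00818, edgeR). Between genotypes 0 of 28 were called by edgeR at either age, with 2 at an unadjusted p under 0.05 in young and 3 in old libraries. Of all transcripts, 0.121% and 0.0717% were called and 13.3% and 14.7% had such a p. DESeq2 called 2 in young libraries, where its share of all transcripts is not given.

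The genes most like Crem were Zfp354c (0.12), Tmod3 (0.12) and Mospd2 (0.13). Of 4 tested CREM partners, which include the coactivator of CREM in testis encoded by Fhl5, 3 were called higher in old AKO: Kif17 (1.91 ± 0.52, adjusted p = 0.0305), Fhl2 (2.40 ± 0.71, adjusted p = 0.0394) and Fhl5 (1.18 ± 0.37, adjusted p = 0.0461, edgeR), all at means under 2 CPM. Of all genes, 10.4% were called higher in AKO ageing. With 1 library left out, 0 to 3 of the 4 partners and 732 to 3771 of all genes were called there (edgeR). In the other 3 comparisons 0 of 4 were called, with 1 each at an unadjusted p under 0.05 (edgeR). Of 10 tested testis germ cell markers 2 were higher in old AKO. The list summed to 53.9 to 69.9 CPM in young AKO and to 218, 79.6 and 82.1 in old AKO replicates 1, 2 and 3. In old WT 1 was higher (14.2% of all genes were), with sums of 46.3 to 53.6 in young and 73.4 to 93.5 in old WT. Their part was not tested. Of 11 epididymis markers in the table, 6 (Defb20, Lcn5, Lcn8, Lcn9, Ros1 and Spint4) were at 0 in all libraries, and 0 of the 2 tested were called in any of the comparisons by edgeR, with 1 at an unadjusted p under 0.05 in each genotype comparison.

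Creb1 (chromosome 1, 64532804 to 64604548, plus strand) and Atf1 (chromosome 15, 100227859 to 100261248, plus strand, both mm10) encode the CREB factors with broad expression, and neither was called. Creb1 ran from 29.3 to 34.4 CPM in young WT, 27.2 to 32.7 in young AKO, 31.5 to 35.9 in old WT and 28.4 to 30.2 in old AKO. Atf1 ran from 30.6 to 37.3, 32.8 to 34.5, 28.6 to 37.7 and 26.7 to 31.1 CPM in the same order of groups. All neighbouring groups in order of level overlapped for both genes, but every old AKO library was below every old WT one for Creb1 and below every young AKO one for Atf1. Among Creb1 transcripts, variant A (327 codons) held 70.8 to 78.5% of reads as a group mean and variant B (341 codons), which has an added exon, 19.3 to 21.1%. The genes most like Creb1 were Msl2 (0.055), Cd2ap (0.057) and Lin7c (0.060), and those most like Atf1 were Foxj3 (0.068), Sfmbt1 (0.073) and Fam91a1 (0.075). For Creb3 they were Sdhaf4 (0.10), Ptpmt1 (0.11) and Cyb5r1 (0.11), and for Creb3l2 Sun1 (0.081), Sil1 (0.083) and Rtn3 (0.084).

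Upstream of the CREB factors, of 15 protein kinase A subunits, inhibitors and anchors 4 were higher and 1 lower in old WT (median 0.02), and 2 higher and 1 lower in old AKO (median 0.06). The shares of all genes were 14.2% higher and 8.73% lower in WT and 10.4% and 7.93% in AKO. Pkia, a protein inhibitor of the kinase, rose from 14.4 ± 3.98 to 35.3 ± 3.67 CPM in WT (1.29 ± 0.20, adjusted p = 0.00412) and from 11.7 ± 2.49 to 28.2 ± 2.1 in AKO (1.27 ± 0.20, adjusted p = 0.00424, edgeR). The regulatory subunit gene Prkar1b rose by 1.15 ± 0.25 in WT (adjusted p = 0.0102) and by 1.27 ± 0.25 in AKO (adjusted p = 0.00967, edgeR). The inhibitor gene Pkib had 0.44, 0.17 and 0.17 CPM in young WT and 1.33, 0.64 and 6.22 in old WT (3.39 ± 0.78, adjusted p = 0.0134, edgeR), a difference that was 1.91 without old WT replicate 3 (adjusted p = 0.0461, edgeR). Pkig rose in WT by 0.68 ± 0.21 (adjusted p = 0.0367, edgeR), a call lost without the 2 libraries that lay apart (adjusted p = 0.0843, edgeR). The catalytic subunit gene Prkaca fell by 0.32 ± 0.10 in AKO (adjusted p = 0.0496, edgeR). Between genotypes 0 of 15 were called by edgeR, with 2 in young and 3 in old libraries at an unadjusted p under 0.05.

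Of 21 kinases and phosphatases that act on CREB or CRTC proteins, 2 were higher and 4 lower in each ageing comparison (median 0.12 in WT and -0.06 in AKO), beside 22.9% of all genes called in WT and 18.4% in AKO. Sik2, a kinase that holds CRTC proteins in the cytoplasm, went from 297 ± 38.1 to 139 ± 17.6 CPM with age in WT (-1.10 ± 0.13, adjusted p = 0.00137) and from 312 ± 22.0 to 196 ± 20.3 in AKO (-0.67 ± 0.13, adjusted p = 0.00886, edgeR). It was higher in old AKO than in old WT (0.50 ± 0.13, adjusted p = 0.0461, edgeR). Rps6ka1, a ribosomal S6 kinase gene, was lower there (-1.15 ± 0.30, adjusted p = 0.0483, edgeR). Both calls between the old genotypes were lost without the 2 libraries that lay apart, at 0.42 for Sik2 and -0.66 for Rps6ka1 (adjusted p = 0.0781 and 0.131, edgeR). In young libraries 0 of 21 were called, with 3 at an unadjusted p under 0.05 (edgeR). Of the 3 CRTC genes, Crtc1 fell with age in WT by 0.34 ± 0.11 (adjusted p = 0.0490, edgeR). Crtc2, at the levels given above, fell with age in AKO by 0.68 ± 0.20 (adjusted p = 0.0406, edgeR), and Crtc3 was not called. Of 11 other CREB and ATF factors tested, Crebzf (-0.40 ± 0.10, adjusted p = 0.0187) and Atf7 (-0.33 ± 0.09, adjusted p = 0.0210, edgeR) fell in WT ageing. In the other 3 comparisons 0 were called, with 1 in each genotype comparison and 3 in AKO ageing at an unadjusted p under 0.05 (edgeR).

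Of 22 known CREB and CRTC target genes, 7 were higher and 2 lower in old WT (median 0.47) and 6 higher and 1 lower in old AKO (median 0.41). Of all genes, 14.2% were higher and 8.73% lower in old WT (median 0.03) and 10.4% and 7.93% in old AKO (median -0.01). With 1 library left out, 3 to 10 of the 22 were called in WT ageing and 0 to 9 in AKO ageing (edgeR). Of all genes, 1511 to 4436 and 732 to 3771 were then called (edgeR). Between genotypes 6 were lower in old AKO (median -0.44, with 5.95% of all genes called) and 0 were called in young libraries (median -0.37). In the young libraries 11 had an unadjusted p under 0.05, as had 2943 of all 15068 genes (edgeR). DESeq2 called 8, but its share of all genes is not given, so this count cannot be read as an excess. In old libraries Klf4 differed by -0.63 ± 0.11 (adjusted p = 0.0189), the phosphodiesterase gene Pde4b by -1.0 ± 0.23 (adjusted p = 0.0292) and the nuclear receptor gene Nr4a2 by -1.06 ± 0.25 (adjusted p = 0.0331, edgeR). Areg, a growth factor gene, had 3.10, 3.36 and 10.5 CPM in old WT and 1.31, 0.97 and 0.91 in old AKO (-2.41 ± 0.47, adjusted p = 0.0195, edgeR). Old WT replicate 3 was far above the others, and without it the difference was -1.59 (adjusted p = 0.0339, edgeR). With the replicate number as a block, and without old AKO replicate 1, 2 or 3, 0 of the 22 were called in old libraries, and 2 without old WT replicate 3 (edgeR). Over the fits with 1 library left out, 4 to 1037 of all genes were called there, against 897 in the main fit (edgeR). The loss is therefore not particular to these 22. The list was drawn up with results of these samples known and is not independent evidence of its direction. In the same comparison 15 of 15 macrophage, 5 of 14 progenitor and fibroblast and 1 of 10 tested lymphocyte markers were lower, and 3 of 15 adipocyte markers higher, in old AKO. Lymphocyte markers summed to 14.1 to 27.5 CPM in old WT and 7.07 to 15.6 in old AKO. The part of these markers in the target gene differences was not tested. In the interaction 0 genes of the 9 pathway lists were called by edgeR, with 0 to 2 of each list at an unadjusted p under 0.05, and DESeq2 called 1 CREB target gene.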

How the data were processed

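Poly-A RNA of 12 libraries was read on a HiSeq4000 from TruSeq mRNA libraries, per the labels. Per the submitters' processing notes, the genome build is mm10 and the tools include StringTie 1.3.4d, HISAT2 2.1.0, Bowtie2 and HISAT, whose roles and order are not given. For 36779 transcripts the authors deposited 1 table, with an estimated count per library (whole numbers, not scaled for depth). The same deposited table holds FPKM (reads scaled to depth and transcript length). Totals were 45935795 to 61125366 estimated reads per library. A line that was empty in the table used is not analysed here.

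Estimated counts were summed per gene symbol, scaled by TMM and filtered by filterByExpr to 15068 genes (22306 transcripts for single transcripts). They were tested with the edgeR 4.0.16 quasi-likelihood F-test in R 4.3.3, in 1 fit of 12 libraries with a mean per group. P-values are two-sided, adjusted by Benjamini-Hochberg over all genes or transcripts tested, and called under 0.05. SE is the log2 difference divided by the square root of F. The deposited FPKM values served for levels between genes and for limma 3.58.1 alternatives. Other alternatives were DESeq2 1.42.0 (Wald test and size factors), limma-voom, other filters, left-out libraries, fits without the groups not compared, and the replicate number as a block. Shares in percent of all genes or transcripts are those of the main edgeR fit. The scripts were tested on simulated data. Python 3.11.15, pandas 2.3.3 and matplotlib 3.10.9 were used.

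The members and the gene and marker lists were chosen with earlier results of these data known. The members, Crtc2, the called genes of a list (at most 4, by p) and the 3 genes most like each member (mean of at least 1 CPM, unnamed gene models passed over) were named by rule. Some genes that meet it are not printed. Promoter windows are from RefSeq (GRCm38.p6). Codons and overlapping genes are from the GENCODE annotation of mm10.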

Additional observations from a re-analysis of the deposited data

How the results depend on the processing

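Every log2 difference printed for a member kept its direction under every alternative run for it. In young libraries the number of members called was 1, and it was 2 with the DESeq2 Wald test and 0 with limma-voom, with no filter on low counts, on log2(FPKM + 1) with or without a filter and in the fit of only the groups compared. With 1 library left out it was 0 to 1, where 5 to 464 of all genes were called. In WT ageing the number was 4, and it was 2 on log2(FPKM + 1) with no filter, 1 in the fit of only the groups compared and 1 to 5 with 1 library left out. All genes called there with 1 library left out numbered 1511 to 4436. In AKO ageing it was 2, and it was 1 on log2(FPKM + 1), on log2(FPKM + 0.1) and with no filter on log2(FPKM + 1), and 1 to 3 with 1 library left out. All genes called there with 1 library left out numbered 732 to 3771. Of member transcripts, 0 were called in young libraries (2 with DESeq2, 0 to 1 with 1 library left out), and 0 to 1 in old libraries and in the interaction with 1 library left out. In WT ageing 1 transcript was called, 3 with DESeq2, 2 with limma-voom, 0 with only the groups compared, 4 when both old WT replicate 3 and young WT replicate 1 were left out, and 0 to 3 with 1 library left out. In AKO ageing 1 was called, 2 with DESeq2, limma-voom, each of the 3 FPKM settings and without those 2 libraries, and 0 to 2 with 1 library left out. All transcripts called with 1 library left out numbered 12 to 55 in young libraries, 3 to 419 in old libraries and 3 to 17 in the interaction. They numbered 137 to 2656 in WT ageing and 112 to 1955 in AKO ageing. The numbers of all genes or transcripts called under the other alternatives are not given, so these shifts cannot be set against them. The causes of these shifts were not tested.

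Groups share replicate numbers in the labels. Same-numbered libraries deviated from their group means with correlations of -0.21 to 0.09. Different-numbered libraries were not compared, so whether the numbers pair libraries is unknown. With the replicate number as a block, 0 members were called in young libraries, 0 in old libraries, 4 in WT ageing, 2 in AKO ageing and 0 in the interaction. Depth limits Creb5 most, at 16 to 398 reads per library, and the split of reads among transcripts of 1 gene is the authors' estimate.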
